A study of Mus musculus with 36 samples.

Results

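The levels of 3 mature microRNAs (miRNAs), mmu-miR-338-3p, mmu-miR-338-5p and mmu-miR-383-5p, were followed in the mouse prostate. They were taken by name from the 1963 miRNAs listed for every library. They had been chosen by their measured levels in the 30-week groups against the 30-week controls, so the 30-week values are given as a description with no test. The prefix mmu is left out from here on. The ventral and lateral lobes of male mice were taken at either 10 or 30 weeks of age. The 36 libraries form 12 groups of 3. The WT animals were ELAC2+/+, the KO animals ELAC2-/- and the A537T animals carried ELAC2A537T. KO refers to excision of Elac2 by a Cre recombinase under the probasin promoter (Pb-Cre), which is active in prostate epithelium, so other cells of the lobe keep the gene. A537T is a substitution of alanine by threonine, homozygous in the whole animal. Each line was also studied with a single copy of the TRAMP transgene (TRAMP +/-), in which probasin sequences drive the SV40 T antigens. All animals were age- and littermate-matched, on a background that the study spells C56NL/6N. Elac2 encodes the RNase Z that releases the 3′ ends of transfer RNAs from their precursors. Its messenger RNA is not in these tables, so the genotypes could not be checked from the values.

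A miRNA is cut from a hairpin precursor, and either arm of the hairpin can be loaded into Argonaute, where bases 2 to 8 (the seed) pair with target messenger RNAs. miR-338 lies within an intron of Aatk, a kinase gene expressed mainly in the nervous system, and is best known from oligodendrocytes and neurons. miR-383 lies within an intron of Sgcz, which encodes a sarcoglycan, and has been studied in brain, testis and ovary. Both have been described as growth-restraining miRNAs in several tumour types.

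In the GRCm38 annotation Mir338 occupies chr11:120014765-120014862 on the minus strand, inside the Aatk gene (chr11:120007313-120047167, same strand), and overlaps no exon in any of the 6 Aatk transcripts that span it. Mir383 occupies chr8:38252133-38252202 on the minus strand inside Sgcz (chr8:37522298-38661508, same strand), again within introns of both transcripts that span it. A further miRNA gene, Mir3065, lies on the plus strand opposite Mir338 at chr11:120014767-120014853. Mature sequences came from RefSeq for GRCm38.p6, in which 2 of the 3 miRNAs were found. They are shown with miR-3065-5p, the product of the opposite strand, because reads of these loci have to be told apart, and capitals mark the seed.

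miR-338-3p: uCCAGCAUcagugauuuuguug
miR-338-5p: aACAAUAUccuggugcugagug
miR-3065-5p: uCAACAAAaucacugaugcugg

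The arms of miR-338 carry different seeds, and neither seed occurs in another of the 1679 mature miRNAs of the same table. miR-338-3p and miR-3065-5p share 21 genomic positions on opposite strands and are therefore close to complementary. In the hairpin both arms are in capitals, the 5p arm first.

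Mir338 hairpin: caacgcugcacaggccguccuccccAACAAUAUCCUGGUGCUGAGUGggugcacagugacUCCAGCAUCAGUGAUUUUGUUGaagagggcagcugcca

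Levels are given as CPM, the reads of a miRNA per 1000000 miRNA reads of the same library, and differences as the mean of log2(CPM + 0.1) in a mutant group minus that in its control. Library totals ran from 655455 to 21870210 reads, with library 35 (A537T, 10 weeks) at the lowest value and the other 35 at 4544257 or more. Libraries are named here by the number in their column, since no replicate is given there. The study describes the libraries of a group as biological replicates from separate mice. In a bulk lobe, fewer cells of a type and less RNA per cell cannot be told apart.

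miR-338 was a miRNA of moderate abundance and miR-383 a rare one. miR-338-5p ranked 204 by mean CPM and ranged from 6.22 to 121 CPM, with a median of 27.5. miR-338-3p, from the other arm, ranked 230 and ranged from 4.44 to 84.1 CPM, with a median of 17.2. miR-383-5p ranked 432, with a median of 1.38 CPM and a highest value of 10.0. The miR-338 arms thus differed 19.4-fold (5p) and 18.9-fold (3p) between their highest and lowest libraries. miR-383-5p had no read in library 7 (KO-TRAMP, 10 weeks), where 3 reads would have been 0.383 CPM. In 4 more libraries it rested on 1 or 2 reads, and its 1112 reads over all libraries set the precision of every value below. The other products of these loci were barely seen. miR-383-3p had 9 reads in 7 libraries, miR-3065-5p had 29 reads in 18, and miR-3065-3p had 3 reads in 2.

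**Figure D1:**
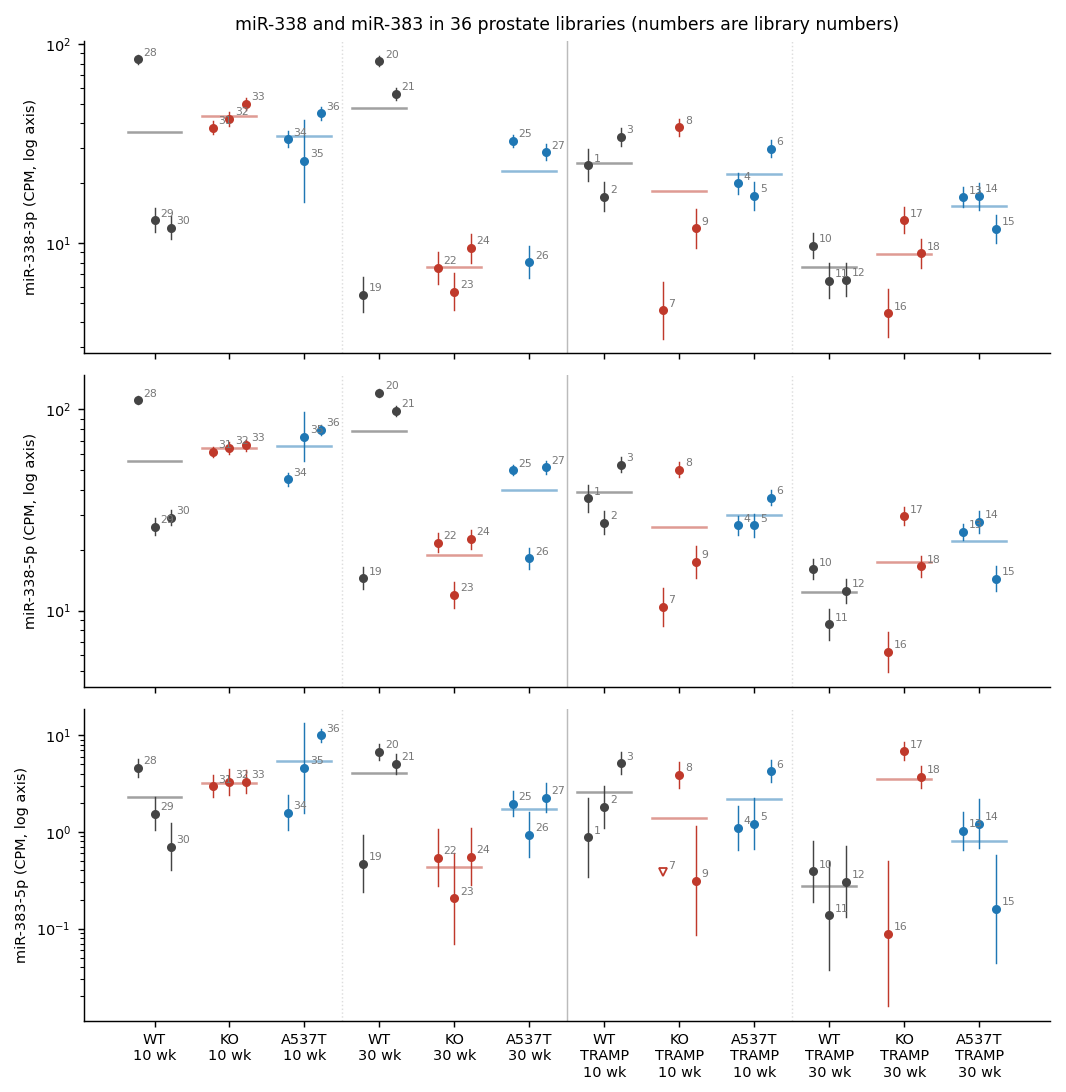
Level of each miRNA in CPM on a log axis, by group, with 1 point per library, its 95% Wilson interval (counting error only) and its library number, and a horizontal bar for the group mean (n = 3). The open triangle of library 7 is drawn at the level of 3 reads, since no read of miR-383-5p was found there. WT libraries split widely, with library 28 at 84.1 CPM of miR-338-3p beside 13.1 and 12.0, and library 19 at 5.51 beside 82.2 and 56.3.

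Ordered by mean miR-338-3p, WT at 30 weeks stood first with 48.0 ± 39.0 CPM (SD, n = 3) and KO at 30 weeks last with 7.55 ± 1.88 CPM (SD, n = 3). Between them came KO (43.5 CPM), WT (36.4 CPM), A537T (34.8 CPM) and WT-TRAMP (25.4 CPM) at 10 weeks, and A537T at 30 weeks (23.1 CPM). A537T-TRAMP (22.4 CPM) and KO-TRAMP (18.3 CPM) at 10 weeks followed, then A537T-TRAMP (15.4 CPM), KO-TRAMP (8.80 CPM) and WT-TRAMP (7.60 CPM) at 30 weeks. Every pair of neighbours in this order overlapped, and so did every pair of neighbours in the orders of the other miRNAs. miR-383-5p was highest on average in A537T at 10 weeks (5.39 ± 4.27 CPM, SD, n = 3) and lowest in WT-TRAMP at 30 weeks (0.278 ± 0.130 CPM, SD, n = 3). This order was set across tables that the authors normalised separately, through each library's own total.

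At 10 weeks the question was whether loss or mutation of Elac2 changed these miRNAs before the age that led to their choice. In KO against WT no change in the 3 miRNAs passed the test. miR-338-3p was at 38.2, 42.2 and 50.2 CPM in KO and at 84.1, 13.1 and 12.0 CPM in WT. All KO libraries lay between the highest WT library, 28, and the other WT libraries. miR-338-5p was at 61.8, 64.4 and 66.5 CPM in KO against 111, 26.2 and 28.9 CPM in WT, and miR-383-5p was at 2.96, 3.30 and 3.31 CPM against 4.60, 1.55 and 0.701 CPM. KO libraries were thus tightly grouped for each miRNA, and WT libraries were not.

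The log2 difference of KO from WT was 0.87 ± 0.73 (SE) for miR-338-3p, 0.55 ± 0.55 for miR-338-5p and 0.84 ± 0.62 for miR-383-5p, with limma adjusted p-values of 0.511, 0.577 and 0.475. Of the 513 miRNAs tested, 0 (0%) passed the adjusted threshold of 0.05 in limma and 68 had an unadjusted p under 0.05. edgeR's quasi-likelihood test called 0 and DESeq2 called 29, none of them among the 3 miRNAs. Without WT library 28 the log2 differences were 1.78, 1.22 and 1.52, and the limma adjusted p-values were 0.0139, 0.0207 and 0.0457. Then 98 of 510 miRNAs were called, 74 of them higher in KO, and the median difference of all was 0.39. The absence of a call thus rested on that library, and the calls without it were not particular to the 3 miRNAs. Unlike the 3 miRNAs, the summed markers of 5 cell types separated KO from WT without overlap, and their part in the result was not tested. The sums of the neuronal, epithelial, red cell, and germ cell and ciliated duct lists overlapped. All CPM of a library share its total, so the lists are not independent of each other. The 7 skeletal muscle markers, led by miR-1a-3p, together held 97332 to 306682 CPM in WT and 7357 to 65052 CPM in KO. Markers of stroma and smooth muscle held 75605 to 309209 CPM in WT and 309941 to 366785 CPM in KO. White blood cell markers held 991 to 2248 CPM against 2575 to 2590 CPM, neuroendocrine markers 2710 to 6907 CPM against 7618 to 7856 CPM, and liver markers 0.935 to 1.99 CPM against 2.495 to 3.12 CPM.

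In A537T at 10 weeks the ranges again lay within or across the WT range. miR-338-3p was at 33.4, 25.9 and 45.0 CPM, and miR-338-5p was at 45.0, 73.2 and 79.1 CPM. Neither arm reached the level of WT library 28. miR-383-5p was at 1.59, 4.58 and 10.0 CPM, of which the middle value came from 3 reads in the shallow library 35, and library 36 was above every WT library. The log2 differences were 0.52 ± 0.71 (SE), 0.54 ± 0.56 and 1.23 ± 0.85, all with a limma adjusted p of 0.869. limma called 0 (0%) of 516 miRNAs here, with 18 at an unadjusted p under 0.05, and edgeR and DESeq2 each called 0. The size of these differences followed single WT libraries. Without library 28 they were 1.43, 1.21 and 1.90, with limma adjusted p-values of 0.0840, 0.123 and 0.251, and without library 30 they were 0.03, 0.24 and 0.63. Without library 29 they were 0.09, 0.17 and 1.15, and without A537T library 36 that of miR-383-5p was 0.61. The red cell markers held 307 to 357 CPM in A537T and 118 to 293 CPM in WT, and their part in the result was not tested.

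On the TRAMP background at 10 weeks, KO-TRAMP held its 3 libraries far apart. miR-338-3p was at 4.59, 38.3 and 11.9 CPM against 24.6, 17.1 and 34.3 CPM in WT-TRAMP. miR-338-5p was at 10.5, 50.2 and 17.5 CPM against 36.1, 27.4 and 53.2 CPM. In both arms libraries 7 and 9 lay below all WT-TRAMP libraries, and library 8 lay above all of them for the 3p arm and among them for the 5p arm. miR-383-5p followed the same division, with 0, 3.90 and 0.313 CPM (0, 41 and 2 reads) against 0.880, 1.82 and 5.15 CPM. The log2 differences were -0.92 ± 0.70 (SE) for miR-338-3p, -0.83 ± 0.55 for miR-338-5p and -1.97 ± 1.30 for miR-383-5p, with limma adjusted p-values of 0.752, 0.742 and 0.742. limma called 0 (0%) of 491 miRNAs, with 16 at an unadjusted p under 0.05, and edgeR and DESeq2 each called 0. Without library 8 the differences were -1.71, -1.46 and -3.40, and the adjusted p-values from limma 0.0867, 0.0652 and 0.0874. The neuroendocrine markers held 4396 to 5397 CPM in KO-TRAMP and 5527 to 6842 CPM in WT-TRAMP, and their part in the result was not tested.

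A537T-TRAMP and WT-TRAMP were close in all 3 miRNAs at 10 weeks. miR-338-3p was at 20.05, 17.3 and 29.8 CPM in A537T-TRAMP, and miR-338-5p was at 26.6, 26.6 and 36.5 CPM. miR-383-5p was at 1.10, 1.21 and 4.23 CPM. All of these overlapped the WT-TRAMP values. The log2 differences were -0.16 ± 0.32 (SE), -0.34 ± 0.29 and -0.18 ± 0.70, with limma adjusted p-values of 0.845, 0.643 and 0.908. limma called 0 (0%) of 493 miRNAs, with 33 at an unadjusted p under 0.05. edgeR called 0 and DESeq2 called 2, neither of them among the 3 miRNAs.

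The effect of KO had opposite signs on the TRAMP background and off it, and the difference between these effects was tested as an interaction over 12 libraries. It was -1.79 ± 1.13 (SE, log2) for miR-338-3p, -1.38 ± 0.86 for miR-338-5p and -2.81 ± 1.61 for miR-383-5p, with limma adjusted p-values of 0.424, 0.424 and 0.421. For A537T the corresponding differences were -0.68, -0.88 and -1.41, with limma adjusted p-values of 0.719, 0.645 and 0.654. These sizes rested on single libraries. Without library 28 the differences for KO were -2.70 and -2.05 in the 3p and 5p arms of miR-338, and without library 7 they were -1.06 and -0.88. For miR-383-5p they ran from -4.24 without library 8 to -1.58 without library 7. For A537T they were -1.59, -1.55 and -2.08 without library 28, against -0.19 for miR-338-3p without library 30, -0.51 for miR-338-5p without library 29 and -0.76 for miR-383-5p without library 3. limma called 0 (0%) of 511 miRNAs in the first interaction and 0 (0%) of 506 in the second, with 59 and 27 at an unadjusted p under 0.05, and other tools were not run on the interactions. CPM depend on what else fills a library, and the median difference of all miRNAs tested at 10 weeks was 0.24 for KO, 0.15 for A537T, -0.21 for KO-TRAMP and -0.21 for A537T-TRAMP on the log2 scale. Relative to that median miR-338-3p stood at 0.62, 0.37, -0.72 and 0.05, miR-338-5p at 0.31, 0.39, -0.63 and -0.13, and miR-383-5p at 0.59, 1.08, -1.76 and 0.03. Both miR-338-3p and miR-383-5p were thus slightly below WT-TRAMP in A537T-TRAMP in CPM and slightly above it relative to the median.

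**Figure D2:**
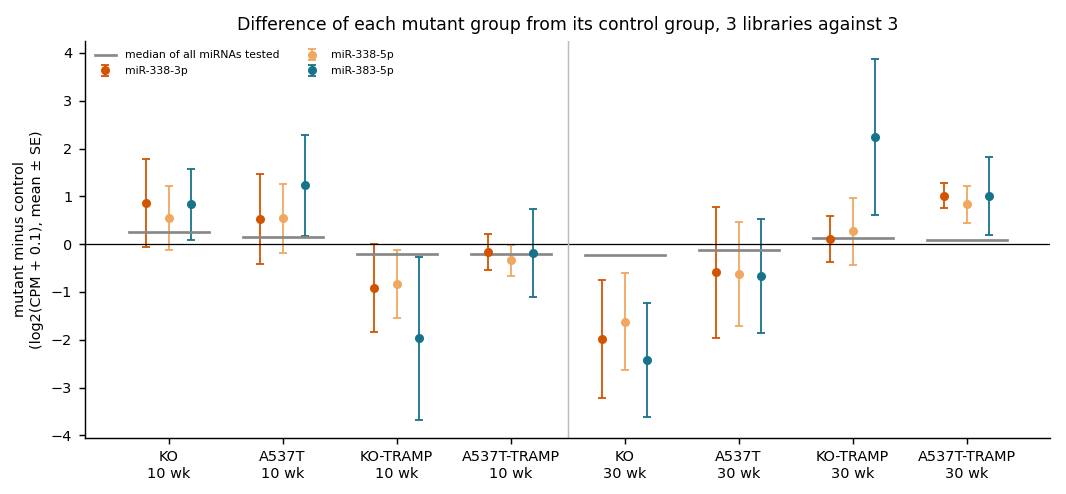
Difference of each mutant group from its control in mean log2(CPM + 0.1), with bars of 1 standard error computed from the 6 libraries of the comparison alone and a grey line for the median of all miRNAs tested. In CPM the 3 miRNAs lay on the same side of 0 in every comparison, from -2.43 for miR-383-5p in KO to 2.24 for the same miRNA in KO-TRAMP, both at 30 weeks, but relative to the grey line miR-338-3p and miR-383-5p in A537T-TRAMP at 10 weeks and miR-338-3p in KO-TRAMP at 30 weeks changed sides.

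At 30 weeks the values that led to the choice of these miRNAs were as follows. In KO, miR-338-3p was at 7.51, 5.69 and 9.46 CPM, and in WT at 5.51, 82.2 and 56.3 CPM. miR-338-5p was at 21.8, 11.9 and 22.7 CPM against 14.5, 121 and 98.3 CPM. The KO libraries lay close to WT library 19 and far below WT libraries 20 and 21. miR-383-5p was at 0.541, 0.206 and 0.556 CPM, or 3 to 8 reads, against 0.469, 6.74 and 5.06 CPM. The log2 differences of KO from WT were -1.98 ± 1.23 (SE), -1.62 ± 1.02 and -2.43 ± 1.19, with the groups overlapping through library 19 in each case. Relative to the median of all miRNAs, which was -0.23, they were -1.76, -1.39 and -2.20. Without library 19 they were -3.19, -2.59 and -3.56, and without library 20 they were -1.25, -1.06 and -1.76. White blood cell markers held 2526 to 3100 CPM in KO and 1769 to 2162 CPM in WT, skeletal muscle markers 5017 to 8209 CPM against 3886 to 4490 CPM, and liver markers 1.17 to 4.33 CPM against 5.16 to 15.95 CPM. The part of these lists in the differences was not tested.

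In A537T at 30 weeks the 3 miRNAs lay within the wide WT range. miR-338-3p was at 32.7, 8.01 and 28.7 CPM and miR-338-5p was at 49.8, 18.2 and 51.6 CPM. miR-383-5p was at 1.97, 0.938 and 2.26 CPM. Library 26 was the lowest for each miRNA, and no A537T library passed the highest or the lowest WT library. The log2 differences were -0.59 ± 1.37 (SE), -0.63 ± 1.09 and -0.66 ± 1.19, and their size followed library 19 and library 20 of WT. Without library 19 they were -1.79, -1.59 and -1.79, and without library 20 they were 0.15, -0.07 and 0.0032. White blood cell markers held 2407 to 10918 CPM in A537T and 1769 to 2162 CPM in WT, and liver markers 1.23 to 2.19 CPM against 5.16 to 15.95 CPM, and their part in the differences was not tested.

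In KO-TRAMP at 30 weeks the difference from WT-TRAMP was larger for miR-383 than for miR-338, which was not tested. Library 17 was the highest and library 16 the lowest of this group for all 3 miRNAs. miR-338-3p was at 4.44, 13.1 and 8.90 CPM against 9.74, 6.50 and 6.56 CPM in WT-TRAMP, and miR-338-5p was at 6.22, 29.4 and 16.6 CPM against 16.1, 8.55 and 12.6 CPM. miR-383-5p was at 0.0888 CPM in library 16 (1 read), 6.82 CPM in library 17 and 3.71 CPM in library 18, against 0.392, 0.137 and 0.306 CPM in WT-TRAMP. Libraries 17 and 18 were above every WT-TRAMP library and library 16 below every one. The log2 difference was 2.24 ± 1.64 (SE) for miR-383-5p, 0.11 ± 0.49 for miR-338-3p and 0.27 ± 0.70 for miR-338-5p. Without library 16 the differences were 3.83, 0.53 and 0.87, in the same order. In the neuroendocrine list miR-7a-5p had the highest mean over all libraries but reached at most 7183 CPM, and miR-375-3p reached 10627 CPM. Together the 3 markers held 5564, 18263 and 14556 CPM in libraries 16, 17 and 18. In any library outside KO-TRAMP at 30 weeks they held at most 7856 CPM. In WT-TRAMP they held 7329, 4255 and 5813 CPM. Markers of stroma and smooth muscle held 65854, 347889 and 251023 CPM in KO-TRAMP and 203847, 100936 and 142770 CPM in WT-TRAMP. Both lists were thus highest in libraries 17 and 18, as miR-383-5p was, and their part in the result was not tested.

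In A537T-TRAMP at 30 weeks miR-338-3p was the only one of the 3 whose groups did not overlap. It was at 17.03, 17.3 and 11.8 CPM, above 9.74, 6.50 and 6.56 CPM in WT-TRAMP, with a log2 difference of 1.01 ± 0.26 (SE). Of 505 miRNAs compared, 79 (15.6%) had all mutant libraries above all controls here, and since this contrast was among those that led to the choice of the miRNA, nothing is read from the count. miR-338-5p was at 24.6, 27.6 and 14.4 CPM against 16.1, 8.55 and 12.6 CPM, a difference of 0.83 ± 0.39 (SE). miR-383-5p was at 1.03, 1.21 and 0.159 CPM, a difference of 1.00 ± 0.81 (SE), and its mean over the 6 libraries was under the filter of 1 CPM. Library 15 was the lowest of the mutant libraries for all 3 miRNAs.

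Set across the tables by age, 7 of the 18 pairs of miRNA and line had all their 30-week libraries below all their 10-week libraries. In KO all 3 miRNAs were lower at 30 weeks, with log2 differences of -2.53 ± 0.24 (SE) for miR-338-3p, -1.82 ± 0.30 for miR-338-5p and -2.70 ± 0.37 for miR-383-5p. In KO 209 of 504 miRNAs (41.5%) were below in the same sense, and the median of all was -0.35. In WT-TRAMP all 3 were lower as well, with differences of -1.70 ± 0.35 (SE), -1.63 ± 0.38 and -2.57 ± 0.77, where 25.7% of 505 miRNAs were below and the median was -0.03. For miR-383-5p the nearest WT-TRAMP libraries were at 0.392 CPM (library 10, 30 weeks, 7 reads) and 0.880 CPM (library 1, 10 weeks, 4 reads). Their intervals for counting error overlapped. The remaining pair was miR-338-3p in A537T-TRAMP, with a difference of -0.52 ± 0.29 (SE), where 4.03% of 496 miRNAs were below. Its nearest libraries were at 17.27 CPM (library 14, 30 weeks) and 17.34 CPM (library 5, 10 weeks), a gap within counting error. The ages overlapped in all 3 miRNAs in WT (11% of 511 miRNAs below), A537T (23.6% of 509 below) and KO-TRAMP (5.85% of 513 below). In WT the differences were 0.32 ± 1.52 (SE), 0.34 ± 1.18 and 0.56 ± 1.35. Tables of different ages were normalised separately and no test was made across them, and any difference in handling between the tables cannot be told apart from age. The 30-week values also led to the choice of the miRNAs, so nothing is read from the count of pairs or from the falls.

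Set across the tables by the TRAMP transgene, 3 of 18 pairs did not overlap, all with the TRAMP libraries below. miR-338-5p was lower in KO-TRAMP than in KO at 10 weeks (log2 difference -1.61 ± 0.66, SE, with 37.3% of 510 miRNAs below) and in A537T-TRAMP than in A537T (-1.11 ± 0.30, with 34.6% of 512 below). miR-383-5p was lower in WT-TRAMP than in WT at 30 weeks, with a difference of -2.91 ± 1.18 (SE) and 23.3% of 510 miRNAs below. Its nearest libraries were at 0.392 CPM (library 10, WT-TRAMP, 7 reads) and 0.469 CPM (library 19, WT, 8 reads), a gap within counting error. The 30-week values are also those that led to the choice of the miRNAs. The lines overlapped in all 3 miRNAs in WT at 10 weeks (19.1% of 508 below), and in KO (9.88% of 516) and A537T (10.9% of 495) at 30 weeks.

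The 5p arm of miR-338 gave more reads than the 3p arm in 36 of 36 libraries. The ratio of 5p to 3p reads ran from 1.22 to 2.90, with a median of 1.60. It was highest on average in KO at 30 weeks, with 2.90, 2.10 and 2.40, and WT at the same age had 2.63, 1.47 and 1.75, so these groups overlapped. In WT at 10 weeks the ratio was 1.32 in library 28, where both arms were abundant, and 2.00 and 2.41 in libraries 29 and 30. Over the 36 libraries the log2 ratio had a Pearson r of -0.28 and a Spearman rho of -0.29 with the log2 of the summed arms, which share their reads with the ratio. Ligation of adapters differs between sequences, and its part in the ratio was not tested.

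**Figure D3:**
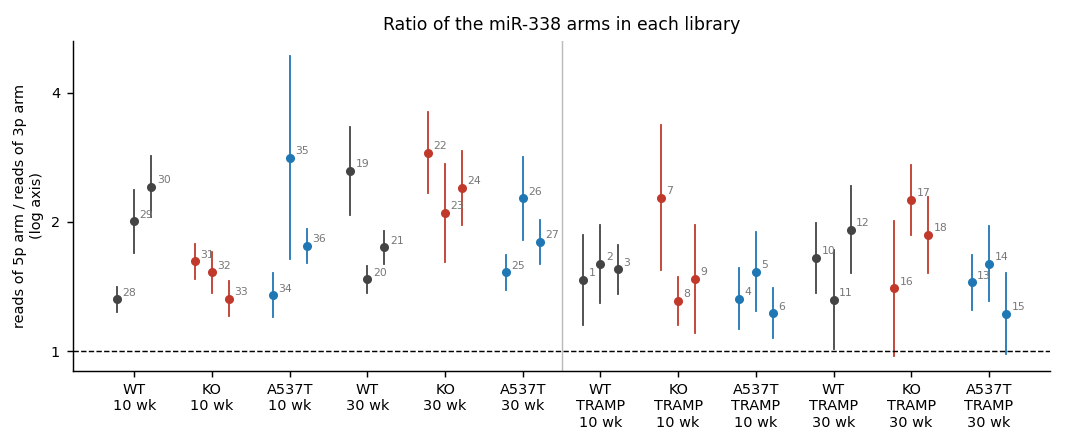
Reads of the 5p arm divided by reads of the 3p arm of miR-338 in each library, on a log axis, with 95% intervals for counting error and the library number at each point. All 36 points lie above 1, between 1.22 and 2.90, and the 3 KO libraries at 30 weeks lie at 2.10 or above.

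The miRNAs went up and down together across libraries. The Pearson r of log2(CPM + 0.1) over 36 libraries was 0.956 between the arms of miR-338, 0.819 between miR-338-3p and miR-383-5p, and 0.863 between miR-338-5p and miR-383-5p, with Spearman rho of 0.954, 0.827 and 0.876. With the mean of each group taken off, r was 0.952, 0.805 and 0.887, so the relation was also present among libraries of the same genotype and age. In 11 of the 12 groups the same library was highest in miR-338-3p and miR-383-5p, and in 9 the same library was lowest. For miR-338-5p and miR-383-5p the highest library was shared in all 12 groups. The relation was tighter without TRAMP (r of 0.910 for miR-338-3p and miR-383-5p, 18 libraries) than with it (r of 0.755, 18 libraries), and the difference was not tested. Library totals had r of -0.02, -0.09 and -0.05 with miR-338-3p, miR-338-5p and miR-383-5p. Values of 1 library share its total and its makeup, and all these correlations are given as a description.

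**Figure D4:**
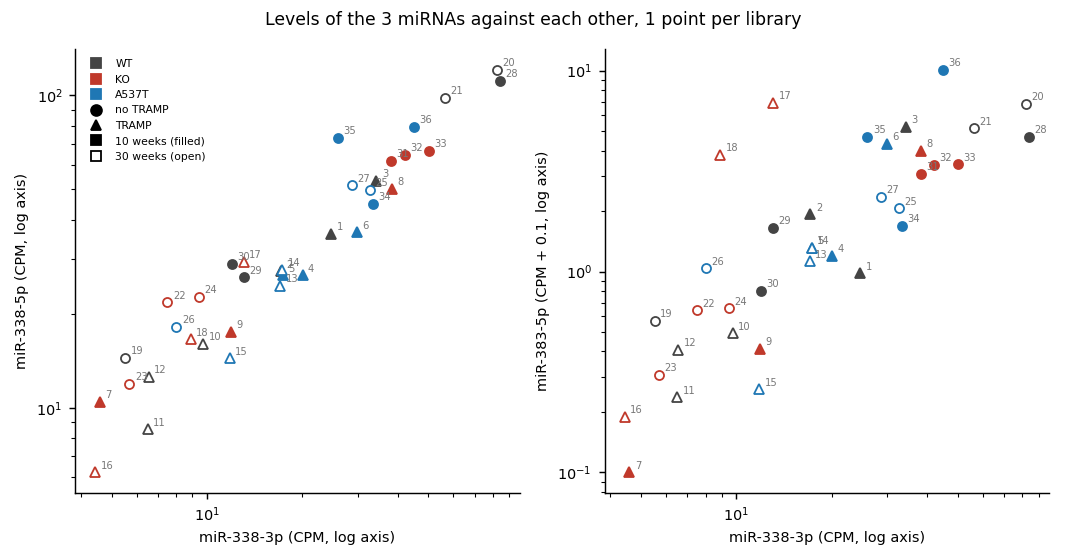
miR-338-5p (left) and miR-383-5p (right, with 0.1 added so that library 7 can be drawn) against miR-338-3p, in CPM on log axes, with 1 point per library, colour for the line, shape for TRAMP and filling for age. The points follow a band in both panels (r of 0.956 and 0.819 over 36 libraries), and libraries 17 and 18 (KO-TRAMP, 30 weeks) stand above it for miR-383-5p.

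Among 514 miRNAs with a mean of at least 1 CPM, those most like miR-338-3p after miR-338-5p were miR-138-5p (r of 0.932), miR-341-3p (0.909), miR-410-3p (0.907), miR-431-3p (0.884) and miR-300-3p (0.879). Those most like miR-383-5p were miR-129-5p (0.928), miR-138-5p (0.910), miR-7b-5p (0.887), miR-409-3p (0.879) and miR-9-3p (0.868). With group means taken off, the lowest of these values was 0.825 (miR-409-3p) and the highest 0.918 (miR-341-3p). miR-138, miR-129 and miR-9 are miRNAs of the nervous system, and miR-7b is found in hypothalamic and endocrine cells. In the order of likeness to miR-383-5p, miR-338-5p was at place 6 and miR-338-3p at place 17, so neither was its nearest match. The sequences of the closest partner of each are shown because their seeds differ from those of miR-338 printed above, with capitals again marking the seed.

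miR-138-5p: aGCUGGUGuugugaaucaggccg
miR-129-5p: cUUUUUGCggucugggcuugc

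miR-138-5p repeated the library pattern at a larger scale. In WT it was at 264, 33.7 and 13.9 CPM at 10 weeks, and at 4.34, 249 and 142 CPM at 30 weeks. Libraries 28, 20 and 21 were thus high, as they were for miR-338. miR-129-5p was at 1.24, 167 and 131 CPM in libraries 16, 17 and 18, the KO-TRAMP libraries in which miR-383-5p was at 1, 84 and 58 reads. WT-TRAMP libraries of the same age held 16.3, 3.08 and 9.44 CPM of miR-129-5p.

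miR-341, miR-410, miR-431, miR-300 and miR-409 come from the Dlk1-Dio3 imprinted region on chromosome 12, whose miRNAs are expressed from the maternal allele and are abundant in brain and in embryos. Of the 511 miRNAs other than the 3 described, 54 (10.5% of the 514) matched a RefSeq position between 109563692 and 109743795 on chromosome 12 of GRCm38. Of the 20 most like miR-338-3p 15 lay in that region, and of the 20 most like miR-383-5p 13 did, with 14 miRNAs in both lists. Without libraries 16, 19, 28 and 35 these counts were 17 and 15. With group means taken off they were 15 and 5, so the share of the region in the list of miR-383-5p came down. The median r of the region was 0.785 with miR-338-3p and 0.731 with miR-383-5p, beside 0.121 and 0.168 over all miRNAs compared, and no member of the region had an r below 0.203 with miR-338-3p or below 0.235 with miR-383-5p. At the other end stood miR-151-3p (r of -0.691) and miR-12191-3p (-0.634) for miR-338-3p, and miR-148a-3p (-0.634) and miR-151-3p for miR-383-5p.

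Most neuronal markers moved with all 3 miRNAs, and the oligodendrocyte miRNAs of the list, which were rare, did not. All 11 neuronal markers were listed in the libraries, 9 of them with a mean of at least 1 CPM, and their summed level ran from 370 to 2377 CPM, led by miR-9-5p. Of these 9, 7 had r between 0.764 and 0.932 with miR-338-3p and between 0.649 and 0.928 with miR-383-5p. The others were miR-128-3p, which is also present in muscle (r of -0.520 with miR-338-3p), and miR-219a-2-3p (-0.231). miR-219a-5p and miR-219a-2-3p, which are best known from oligodendrocytes, had r of -0.038 and -0.231 with miR-338-3p and of -0.070 and -0.110 with miR-383-5p. Their mean levels were only 0.917 and 1.43 CPM, where counting error is large. None of the 9 was at 0 in every library, and 2 of them, miR-129-2-3p and miR-219a-2-3p, were at 0 in 1 and 2 libraries. The sum of all 11 had r of 0.512 with miR-338-3p and 0.559 with miR-383-5p. Without miR-128-3p, a choice made after its values were seen, r was 0.812 and 0.869, and 0.838 and 0.879 within groups.

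The sum of all 11 markers had the same highest library as miR-338-3p in 8 of the 12 groups and the same lowest library in 8. Without miR-128-3p these counts were 9 and 10. They were 8 and 8 for the sum of stroma and smooth muscle, and 9 and 9 for that of the germ cell and ciliated duct list, so such sharing was not particular to neuronal markers. The neuronal sum without miR-128-3p was at 1664, 320 and 212 CPM in WT libraries 28, 29 and 30. There the sum of all 11 markers was 1861, 608 and 2377 CPM, with library 30 the highest. Without miR-128-3p it was at 854 to 1045 CPM in KO at 10 weeks. In WT at 30 weeks it was at 166, 1645 and 1198 CPM in libraries 19, 20 and 21, against 143 to 266 CPM in KO. In KO-TRAMP at 30 weeks libraries 16, 17 and 18 held 95.8, 1137 and 844 CPM, and WT-TRAMP libraries 10, 11 and 12 held 1011, 101 and 518 CPM, so these groups overlapped. Of the 9 neuronal markers, 0 were higher and 9 lower in KO at 30 weeks (median log2 difference -1.68), and 7 were higher and 2 lower in KO at 10 weeks (median 1.04). In KO-TRAMP at 10 weeks 9 were lower (median -1.67), and at 30 weeks 6 were higher and 3 lower (median 0.12). In A537T 8 were higher and 1 lower at 10 weeks (median 0.78), and 9 were lower at 30 weeks (median -0.64). In A537T-TRAMP 2 were higher and 7 lower at 10 weeks (median -0.37), and 5 were higher and 4 lower at 30 weeks (median 0.06). The median of all miRNAs at 30 weeks was -0.23 in KO, -0.13 in A537T, 0.12 in KO-TRAMP and 0.08 in A537T-TRAMP. Most of these markers followed miR-338 and miR-383, which were chosen from 30-week values, so the 30-week counts are not independent of that choice. The part of nervous tissue in the levels of miR-338 and miR-383 was not tested.

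The summed markers of some other cell types followed miR-338-3p as closely as the sum of all 11 neuronal markers did (r of 0.512). That of the red cells had r of 0.617 with miR-338-3p and 0.602 with miR-383-5p, and that of stroma and smooth muscle had 0.517 and 0.626. Within groups the sum of the germ cell and ciliated duct list had r of 0.765 and 0.703, and that of stroma and smooth muscle 0.641 and 0.746, beside 0.591 and 0.596 for all 11 neuronal markers. By single markers, the 7 of stroma and smooth muscle had r between 0.321 and 0.671 with miR-338-3p and were led by miR-143-3p, with sums of 65854 to 408090 CPM. The 6 measured skeletal muscle markers with a mean of at least 1 CPM had a median r of 0.311. The 10 epithelial markers, led by miR-200b-3p, were present in every library (44283 to 112733 CPM together) and had a median r of -0.354. The 6 white blood cell markers, led by miR-146a-5p, had a median of -0.303, and the 3 red cell markers, led by miR-451a, had a median of 0.346. The 3 neuroendocrine markers, led by miR-7a-5p, had r of -0.036, 0.116 and 0.840, the last being miR-7b-5p. The germ cell and ciliated duct list, led by miR-34c-5p, had a median of -0.002, although within groups miR-34c-5p had r of 0.770 and miR-34b-5p of 0.743, and the liver list rested on miR-122-5p (-0.093). These values are for miR-338-3p. With miR-383-5p the median of the neuronal list was 0.823, and the next highest was that of stroma and smooth muscle, at 0.478.

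**Figure D5:**
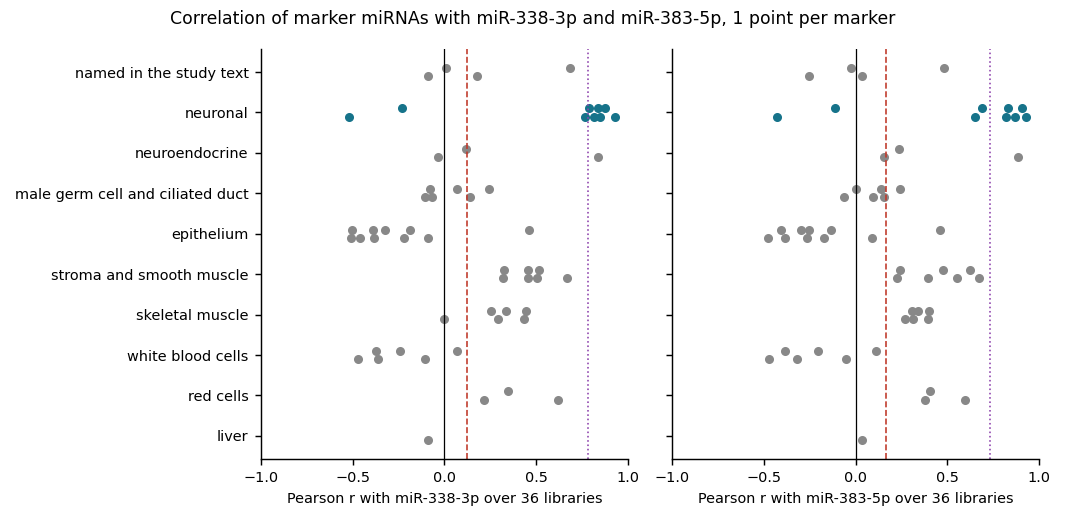
Pearson r of each marker miRNA with a mean of at least 1 CPM against miR-338-3p (left) and miR-383-5p (right) over 36 libraries, by cell type list, with neuronal markers in blue. The dashed red line is the median over all miRNAs compared (0.121 and 0.168) and the dotted purple line the median of the chromosome 12 region (0.785 and 0.731). In both panels 7 of the 9 neuronal markers lie to the right of every skeletal muscle and epithelial marker. miR-7b-5p of the neuroendocrine list (0.840 and 0.887) lies among these 7 in both panels. In the right panel miR-145a-5p of stroma and smooth muscle (0.675) lies beyond neuronal miR-124-3p (0.649).

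The miRNAs that the study's text names beside these 3 were compared as a list, which was drawn up on the same libraries and is no independent evidence. miR-669c-5p had r of 0.685 with miR-338-3p and 0.484 with miR-383-5p. miR-10a-5p, miR-122-5p and miR-676-5p lay between -0.256 and 0.176 with either.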

How the data were processed

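Small RNA libraries (TruSeq Small RNA kit, NovaSeq) were analysed from 8 deposited tables of 6 libraries each. The authors merged read pairs with BBMerge, counted miRNAs with mirDeep2 on GRCm38 and miRBase, summed identical sequences and divided the reads by DESeq2 size factors, so the deposited values are a normalised signal and not raw reads. The deposited tables of the authors' own comparisons hold log2 fold changes and s-values and were not used. Whole reads were recovered from the step size of each column for 100% of values (tolerance 0.001). A column present in both tables of a background and age was taken as WT, the others as the mutant line of the table, and the columns matching no group numbered 0.

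The 10-week comparisons used limma (version 3.58.1, R 4.3.3) with a variance trend on log2(CPM + 0.1) within 1 table, for miRNAs with a mean of at least 1 CPM. Tests were two-sided with Benjamini-Hochberg adjustment over all miRNAs tested and a threshold of 0.05. Alternatives were the deposited size factors with log2(value + 1), a pseudocount of 1 CPM, no filter or a mean of 10 CPM, no variance trend, edgeR 4.0.16 and DESeq2 1.42.0 on recovered reads, a fit of all 36 libraries, and leaving out each library. The script was tested on simulated data. Reads are not independent molecules, so 95% Wilson intervals cover counting error only. The miRNAs named were the 3 described, other products of their loci, those named in the study's text, the 5 highest and 2 lowest correlations with miR-338-3p and miR-383-5p, and the most abundant marker of each list. Other markers were named, and the descriptions by age and TRAMP added, after values were seen. The 3 miRNAs and all lists were chosen with earlier results of these data known.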

Additional observations from a re-analysis of the deposited data

How the results depend on the processing

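No paired analysis was possible because the columns carry no replicate number. In KO against WT at 10 weeks all 3 miRNAs passed the adjusted threshold without library 28 alone, where leaving out single libraries gave log2 differences of 0.38 to 1.78 (miR-338-3p), 0.18 to 1.22 (miR-338-5p) and 0.24 to 1.52 (miR-383-5p). None of the 3 passed in any other 10-week comparison or alternative. In A537T-TRAMP at 10 weeks miR-338-3p reversed to 0.035 with the deposited size factors and to 0.019 in edgeR, and ran from -0.41 to 0.085 on leaving out single libraries, while miR-383-5p ran from -0.77 to 0.47. Calls over all miRNAs in KO against WT at 10 weeks, 0 as reported, were 29 in DESeq2, 18 in the fit of all 36 libraries and 0 to 98 on leaving out single libraries (98 without library 28, 9 without library 32). They were 1 for A537T in the fit of 36 libraries, 2 for A537T-TRAMP in DESeq2 and 0 to 4 on leaving out single libraries (4 without library 4), 0 to 19 for KO-TRAMP (19 without library 8) and 0 to 1 for each interaction (1 without library 28). The cause was not tested. A pseudocount of 1 CPM moved the 10-week difference of miR-383-5p in KO-TRAMP from -1.97 to -0.78. The correlations between the 3 miRNAs kept their sign under every alternative, from 0.755 to 0.975, and r of the neuronal sum rose to 0.812, 0.831 (miR-338-5p) and 0.869 without miR-128-3p. Depth limits miR-383-5p most, since a library of 655455 reads gives 4.58 CPM for 3 reads.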
